A study of Mus musculus with 30 samples.

Results

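Cd4, Ccr7, Hsh2d and Bcl6 were followed through peritoneal macrophage harvests of mice in which the coding sequences of the cyclooxygenases had been exchanged. They are 4 of the 248 target genes of an nCounter mouse inflammation panel, which counts colour-coded probes bound to RNA without amplification, and were chosen by name because they report lymphoid cells or activation in the harvest. All 4 passed the filter on low values, a signal above 20 in at least 6 samples, as did 202 target genes in all. The filter used every group, so a gene high in any group could pass.

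The 30 samples fell into 5 groups of 6 C57BL/6 mice aged 12 to 16 weeks, each from a separate mouse per the labels. Reversa, COX-2>COX-1 and COX-1>COX-2 mice received lipopolysaccharide (LPS), a bacterial wall component sensed by Tlr4, at 2 mg/kg intraperitoneally. By general knowledge of the lines, the coding sequence of Ptgs1 replaces that of Ptgs2 in COX-1>COX-2 mice, the converse holds in COX-2>COX-1 mice, and Reversa mice carry both changes. Wild-type mice received the same LPS dose (WT+LPS) or phosphate-buffered saline, the vehicle (WT-LPS), and all cells were taken after 6 h. No mice with an exchange received the vehicle, so LPS and genotype could be compared only within these 5 groups. Wherever an exchange line is set against WT-LPS, genotype and LPS differ together, and their parts cannot be told apart. The authors deposited a background-corrected signal, with the reference genes Cltc and Gapdh scaled to a geometric mean of 8147.9 in every lane.

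Cd4 is the co-receptor of helper T cells, through which they bind MHC class II molecules on antigen-presenting cells, and some dendritic cells carry it too. Ccr7 is the receptor for Ccl19 and Ccl21, which guide naive T cells and activated dendritic cells to lymph nodes. Hsh2d is an adaptor with an SH2 domain found in haematopoietic cells and studied mainly in T and B cell activation. Bcl6 is a transcriptional repressor that is needed by germinal centre B cells and follicular helper T cells. In mouse macrophages it also restrains inflammatory genes that LPS induces. The resting peritoneal cavity holds macrophages and B cells with smaller numbers of T cells, dendritic cells and mast cells.

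Promoter windows of 250 bases before to 50 bases after the annotated start were held for 2 of the 4 genes (RefSeq, GRCm38.p6). They are shown because Bcl6 varied most closely with Stat3 across LPS samples, and because Hsh2d, which varied with Ccr7, is listed among interferon-responsive genes. Capitals mark matches to TTCNNNGAA, a palindromic sequence known to be bound by STAT factors, searched on both strands together with the interferon-stimulated response element (GAAA, any 2 bases, GAAA) and the NF-kB motif. Bcl6 lies on the minus strand of chromosome 16 (23965050 to 23988866) and has a pair of annotated starts. Hsh2d lies on the plus strand of chromosome 8 (72189668 to 72200958).
Bcl6, chr16:23988803-23989102, minus strand: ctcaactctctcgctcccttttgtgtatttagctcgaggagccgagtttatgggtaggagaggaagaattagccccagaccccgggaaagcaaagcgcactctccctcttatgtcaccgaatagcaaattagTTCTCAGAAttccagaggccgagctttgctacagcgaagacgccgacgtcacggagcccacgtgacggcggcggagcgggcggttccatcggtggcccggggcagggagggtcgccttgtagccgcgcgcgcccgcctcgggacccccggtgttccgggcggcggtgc
Bcl6, chr16:23981234-23981533, minus strand: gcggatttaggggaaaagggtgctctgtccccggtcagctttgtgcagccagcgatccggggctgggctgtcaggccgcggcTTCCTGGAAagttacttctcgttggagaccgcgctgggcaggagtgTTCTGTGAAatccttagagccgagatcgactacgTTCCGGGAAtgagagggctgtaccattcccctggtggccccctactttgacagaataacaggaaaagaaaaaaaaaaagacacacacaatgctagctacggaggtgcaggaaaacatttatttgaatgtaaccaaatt
Hsh2d, chr8:72189418-72189717, plus strand: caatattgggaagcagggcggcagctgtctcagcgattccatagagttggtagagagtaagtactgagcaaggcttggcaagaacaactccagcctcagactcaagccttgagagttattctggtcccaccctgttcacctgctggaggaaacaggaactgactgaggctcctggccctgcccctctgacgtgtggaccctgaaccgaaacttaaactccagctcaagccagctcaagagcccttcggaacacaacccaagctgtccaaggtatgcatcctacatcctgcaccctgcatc
The Bcl6 window at the outer start held 1 match, TTCTCAGAA, beginning 118 bases before the start. At the inner start there were 3, TTCCTGGAA at 168, TTCTGTGAA at 122 and TTCCGGGAA at 88 bases before it, none overlapping another. TTCNNNGAA was present in 8.3% of the 32851 mouse windows of this length, the interferon element in 3.44% and the NF-kB motif in 8.46%. The letters of none of the 3 motifs were found in the Hsh2d window, and those of the interferon element and the NF-kB motif were not found in the Bcl6 windows. A match describes letters only and is no measured site.

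Several features of the whole series touch the results. The counts recovered from the steps of the deposited signal ranged between 298396 and 1001820 per sample, and 1 of 240 negative control values exceeded 20. Samples Reversa 55 and 56 differed by little more than counting noise (chi-square 1.23 per gene, against a median of 112.39 over the 75 pairs within groups) and were averaged and counted as 1 sample, so Reversa has n = 5. Each of 3 runs held 2 lanes of every group, and every group kept its lane positions in each run, so lane position and group cannot be told apart. Of 12 listed macrophage markers 9 were measured, and all 9 exceeded 20 in most samples of every group except Trem2 in Reversa. Their summed signal was 16010 to 39670 in Reversa, 29880 to 43790 in COX-2>COX-1, 21860 to 52180 in COX-1>COX-2, 32050 to 58630 in WT+LPS and 104900 to 145300 in WT-LPS. The markers were unevenly lower with LPS. Alox15 averaged 32860 in WT-LPS and 4114 in WT+LPS, and Tlr4 1187 and 826. The sum therefore does not gauge macrophage numbers. Csf1r, Adgre1 and Itgam, and the lymphocyte genes Cd3e, Cd8a, Ms4a1 and Cd79a, were not analysed here, so the cells that carried the 4 transcripts were not resolved.

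Cd4 was lower in every LPS group than in the vehicle group, with no sample of any LPS group reaching the lowest vehicle sample. Its signal in Reversa was 14.7, 36.8, 37.9 and 44.2 in samples 52, 54, 53 and 51, and 22.5 in the averaged sample. In COX-2>COX-1 it had a lowest, median and highest signal of 50.8, 67.5 and 86.4, in COX-1>COX-2 of 23.6, 36.4 and 43.9, in WT+LPS of 30.4, 41.5 and 86.0, and in WT-LPS of 183, 278 and 326. Cd4 was thus a low-signal gene in all LPS groups, and sample Reversa 52 lay under the level of 20.

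Between the wild-type groups Cd4 averaged 47.2 ± 21.2 in WT+LPS and 263 ± 60.3 in WT-LPS (SD, n = 6 each). It fell by 2.52 ± 0.25 on the log2 scale (SE), a 5.74-fold lower level, with an adjusted p of 4.54e-10 in limma over all tested genes. That call stands in a comparison in which 83.7% of the tested genes passed, 49.5% of the tested genes rising and 34.2% falling, and in which 26.7% lay wholly below the vehicle group as Cd4 did. Taken within run 1, 2 or 3 it was -2.47, -2.20 or -2.90 on the same scale. The depth behind the lowest value is small, 13.4 counts above background in Reversa 52 with an exact 95% Poisson interval of 7.2 to 22.7, against 206.5 counts (179.3 to 236.7) in the highest sample, WT-LPS 39; such intervals cover counting error only.

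The fall of Cd4 was shared by the exchange lines when each was set against WT-LPS, which serves all of these comparisons. Cd4 was 8.57-fold lower in Reversa (adjusted p = 1.73e-11, limma), where 81.7% of all genes passed. In COX-2>COX-1 it was 3.81-fold lower (adjusted p = 6.63e-08, limma), where 85.1% passed. In COX-1>COX-2 it was 7.08-fold lower (adjusted p = 4.63e-11, limma), where 80.2% passed. In bulk RNA, fewer cells of a type and less RNA per cell cannot be told apart, and macrophage markers also summed to less in the LPS groups, as given above; their part in the Cd4 result was not tested.

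**Figure D1:**
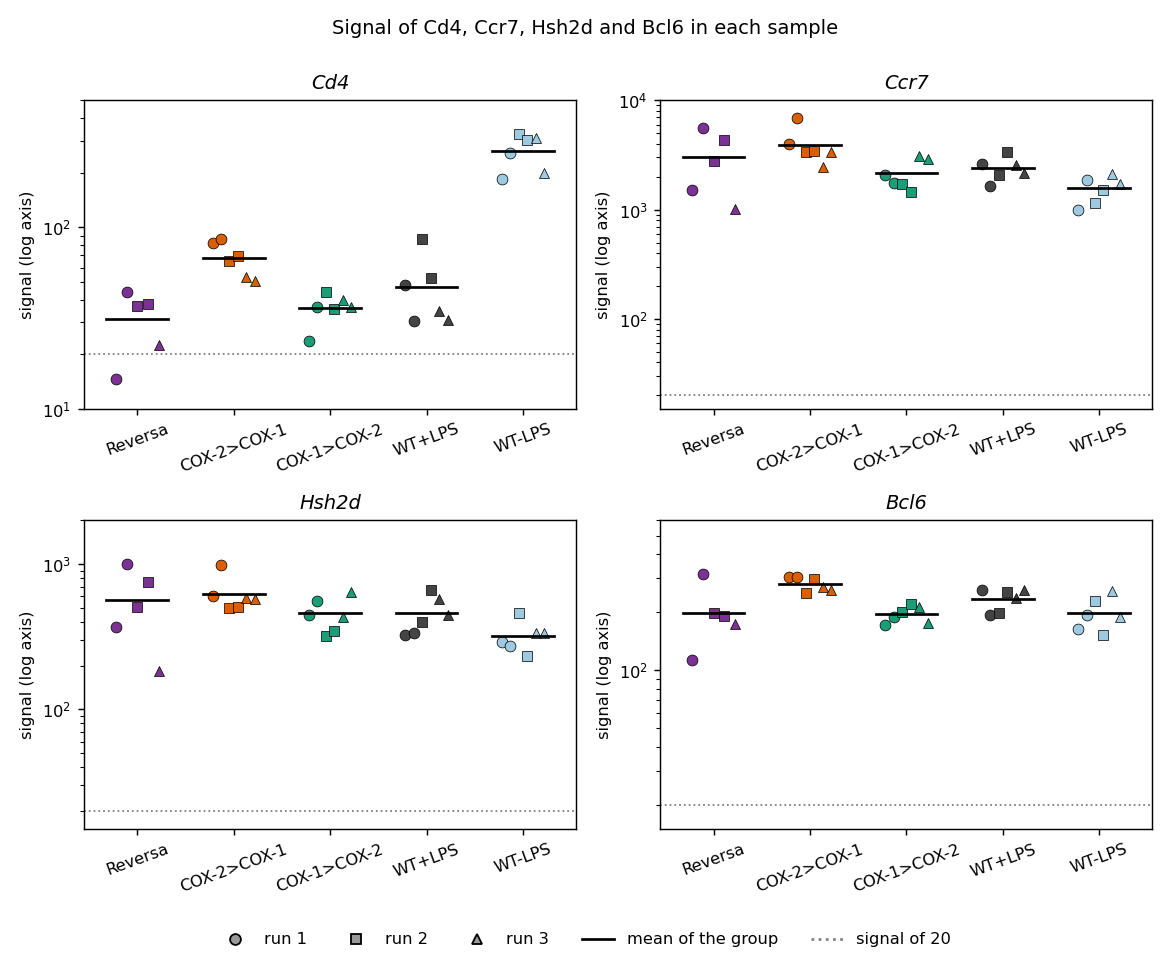
Deposited signal of each gene (vertical, log axis) in every sample of the 5 groups (horizontal), with the run as the marker shape, the group mean as a bar and a signal of 20 as a dotted line. All Cd4 points of the LPS groups lie at 86.4 or less and all WT-LPS points at 183 or more, while for Ccr7, Hsh2d and Bcl6 the points of WT+LPS and WT-LPS overlap.

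Among the LPS groups, Cd4 was highest in COX-2>COX-1. It averaged 31.2 ± 12.2 in Reversa (n = 5) and 67.9 ± 14.4 in COX-2>COX-1 (SD, n = 6), and the highest Reversa sample lay under the lowest COX-2>COX-1 sample. The change was -1.17 ± 0.26 on the log2 scale (SE), 2.25-fold lower in Reversa, with an adjusted p of 0.00398 in limma. Of all tested genes 10.9% passed in this comparison, 5.45% of all tested genes falling, and 1.98% lay wholly below. It had the same direction within each run, at -1.67, -0.84 and -1.18, with no run passing the test alone and with a lone Reversa sample in run 3.

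COX-1>COX-2 also had less Cd4 than COX-2>COX-1, at 36.0 ± 6.85 and 67.9 ± 14.4 (SD, n = 6 each), again without overlap. The log2 change was -0.90 ± 0.25 (SE), 1.86-fold lower, with an adjusted p of 0.0284 in limma, in a comparison where 5.94% of genes passed and 1.98% lay wholly below. The call was lost with equal total signal in every lane (adjusted p = 0.093), with all 6 reference genes (adjusted p = 0.0733), and without COX-1>COX-2 57, COX-2>COX-1 51 or COX-2>COX-1 52 (adjusted p = 0.0927, 0.0672 and 0.0775, all limma). Within runs the change was -1.49, -0.76 and -0.44.

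Against wild-type mice under LPS no exchange line passed the test for Cd4. In Reversa the log2 change was -0.58 (95% interval -1.12 to -0.04, adjusted p = 0.184, limma). In COX-2>COX-1 it was 0.59 (0.08 to 1.11, adjusted p = 0.314), and within the runs 1.11, 0.00 and 0.66. In COX-1>COX-2 it was -0.31 (-0.82 to 0.21, adjusted p = 0.692), with an opposite sign of 0.22 in run 3. These intervals hold changes of well over 1.5-fold, so the absence of a call does not show equal levels. From lowest to highest geometric mean the groups ran Reversa, COX-1>COX-2, WT+LPS, COX-2>COX-1 and WT-LPS, and of the 4 steps between neighbours the test passed at the one from COX-2>COX-1 to WT-LPS.

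The T and NK cell genes fixed as a list with Cd4 did not follow one direction. Of 10 such genes measured besides Cd4, 6 passed the filter, and in WT+LPS against WT-LPS 4 rose, 1 fell and 1, Lta, did not pass. Of all tested genes 83.7% passed there, 49.5% rising and 34.2% falling. The helper cytokines Ifng, Il17a and Il22 averaged 704.5 ± 293, 414 ± 158 and 637 ± 237 in WT+LPS, against 3.39 ± 5.08, 1.78 ± 1.15 and 1.73 ± 1.13 in WT-LPS (SD, n = 6 each). Since those vehicle samples lay at the noise level of 20 or less, the folds are bounds, at least 32.9, 19.3 and 29.9 higher. Cd40lg, the helper T cell ligand of Cd40, was at least 2.97-fold lower (18.2 ± 6.75 in WT+LPS and 66.4 ± 19.3 in WT-LPS, limma adjusted p = 0.000111). The median log2 change of the 6 genes was 4.23, or 2.38 with 5 of them at their bounds, beside 0.47 for all genes. Il2 and Il21, a T cell growth factor and a follicular helper cytokine, did not pass the filter on low values.

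Of 4 B cell genes, 2 fell, 1 rose and 1, Tnfsf14, did not pass, with a median log2 change of -0.52. Ltb, the membrane-anchoring subunit of lymphotoxin, averaged 324 ± 102 in WT+LPS and 4105 ± 537 in WT-LPS, 13.1-fold lower (adjusted p = 5.66e-12). Prkcb, a kinase of B cell receptor signalling, was 2.74-fold lower (adjusted p = 9.75e-07). Cd40, a receptor that B cells share with macrophages and dendritic cells, was 3.78-fold higher at 3390 ± 315 in WT+LPS and 897 ± 101 in WT-LPS (adjusted p = 1.89e-12, all limma). These listed genes therefore moved both ways in the same harvests, as did the tested genes as a whole (49.5% rose and 34.2% fell). Between LPS groups none of these T, NK and B cell genes passed, except Lta, the soluble subunit of lymphotoxin, which was 1.71-fold lower in Reversa (77.5 ± 29.5) than in COX-2>COX-1 (130 ± 34.0; adjusted p = 0.0487, limma).

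**Figure D2:**
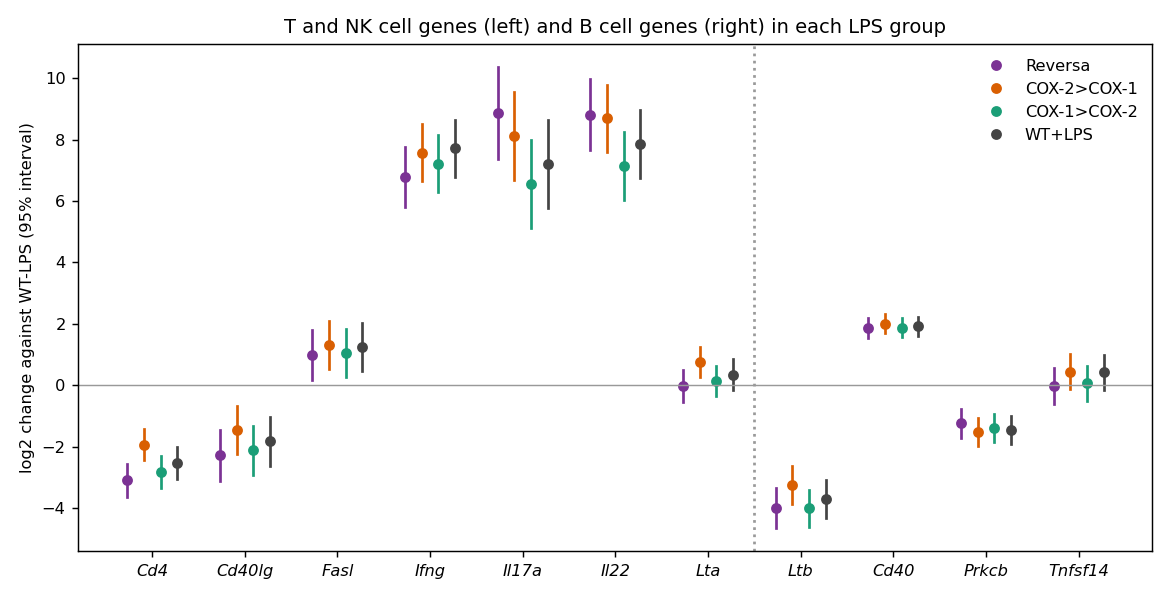
Log2 change against WT-LPS with its 95% interval (vertical) for Cd4 and the tested T and NK cell genes, left of the dotted line, and B cell genes, right of it (horizontal), one colour per LPS group. Cd4, Cd40lg, Ltb and Prkcb lie below 0 in all 4 LPS groups, and Ifng, Il17a, Il22 and Cd40 above it; changes of genes near the noise level in WT-LPS are fitted values, not bounds.

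Across the 23 LPS samples Cd4 varied most like Ltb (Pearson r of log2 signal 0.88), Lta (0.86) and Bcl6 (0.75). After each group's mean was removed these were 0.88, 0.76 and 0.54. The samples share a panel and its scaling, and the correlation is a description. Cd4 and Bcl6 did not keep their relation within runs, where r was 0.92, -0.56 and -0.02 over 8, 8 and 7 samples.

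Ccr7, by contrast with Cd4, was a high-signal gene and passed the test against the vehicle in 2 of the 4 LPS groups. Those 2 groups were exchange lines, COX-2>COX-1 and Reversa, so genotype and LPS differed together. In WT+LPS Ccr7 did not pass. In Reversa its signal was 1505, 2768, 4310 and 5631 in samples 52, 54, 53 and 51 and 1016 in the averaged sample. The lowest, median and highest values were 2466, 3427 and 6907 in COX-2>COX-1, 1452, 1912 and 3068 in COX-1>COX-2, 1660, 2372 and 3339 in WT+LPS, and 999, 1601 and 2129 in WT-LPS. Reversa thus ran from near the lowest to the second highest sample of the series, and every COX-2>COX-1 sample lay above every WT-LPS sample.

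In COX-2>COX-1 Ccr7 was 2.47-fold higher, at a mean of 3932 ± 1539 there and 1560 ± 431 in WT-LPS (SD, n = 6 each; log2 change 1.31 ± 0.32 SE, adjusted p = 0.000513, limma). The share of all genes that passed there was 85.1%, and 42.6% lay wholly above WT-LPS. Ccr7 rose within each run too, by 1.94, 1.38 and 0.60 on the log2 scale (adjusted p = 0.0308, 0.00383 and 0.0459, limma). With lanes set to equal medians of all genes, however, the change was 0.15 and its adjusted p 0.619. That scaling moved the median change over all genes by -1.15 in this comparison.

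In Reversa Ccr7 was 1.67-fold higher, at 3046 ± 1927 (n = 5) and 1560 ± 431 in WT-LPS (SD, n = 6; adjusted p = 0.0433, limma). In this comparison 81.7% of all tested genes passed. The Ccr7 call rested on single samples, with adjusted p of 0.19, 0.143 and 0.0743 without Reversa 51, 53 or 54, and of 0.0972, 0.0855 and 0.0577 without WT-LPS 37, 39 or 40. It was also lost with Reversa 55 and 56 kept apart (adjusted p = 0.15) and with equal total signal (0.14). Other losses were with all 6 reference genes (0.0719), no filter (0.0504), only the groups compared (0.119) and run as a block (0.0547, all limma). The log2 change turned to -0.91 in run 3, which holds the averaged sample alone, and to -0.28 with equal medians of all genes (adjusted p = 0.372, limma).

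In WT+LPS Ccr7 averaged 2411 ± 576, a log2 change of 0.64 from WT-LPS (95% interval -0.01 to 1.30, adjusted p = 0.0644, limma), and it was past the threshold without WT+LPS 52 or WT-LPS 41 (adjusted p = 0.044 each). In COX-1>COX-2 it averaged 2155 ± 669, a change of 0.46 (-0.20 to 1.11, adjusted p = 0.183). Neither direction survived equal medians of all genes, under which the changes were -0.49 in WT+LPS (adjusted p = 0.102) and -0.60 in COX-1>COX-2 (adjusted p = 0.0487, a call of lower, limma).

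No pair of LPS groups differed in Ccr7 by the test. Its change in COX-2>COX-1 from WT+LPS was 0.66 (95% interval 0.01 to 1.32, adjusted p = 0.367, limma), in a comparison where 0.99% of all genes passed and none of the 4 genes did. In Reversa it was 0.10 (-0.59 to 0.79, adjusted p = 0.901), where 8.42% passed and again none of the 4. In COX-1>COX-2 it was -0.18 (-0.84 to 0.47, adjusted p = 0.852), where 0.99% passed and none of the 4. At an unadjusted p under 0.05 these comparisons held 26, 43 and 18 genes (12.9%, 21.3% and 8.91%), with Ccr7 and Cd4 among the 26 and Cd4 among the 43. From COX-2>COX-1, Ccr7 in COX-1>COX-2 differed by -0.85 (-1.50 to -0.19, adjusted p = 0.102) and in Reversa by -0.56 (-1.25 to 0.12, adjusted p = 0.297). By geometric mean the order was COX-2>COX-1, Reversa, WT+LPS, COX-1>COX-2 and WT-LPS, with no neighbours past the test.

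**Figure D3:**
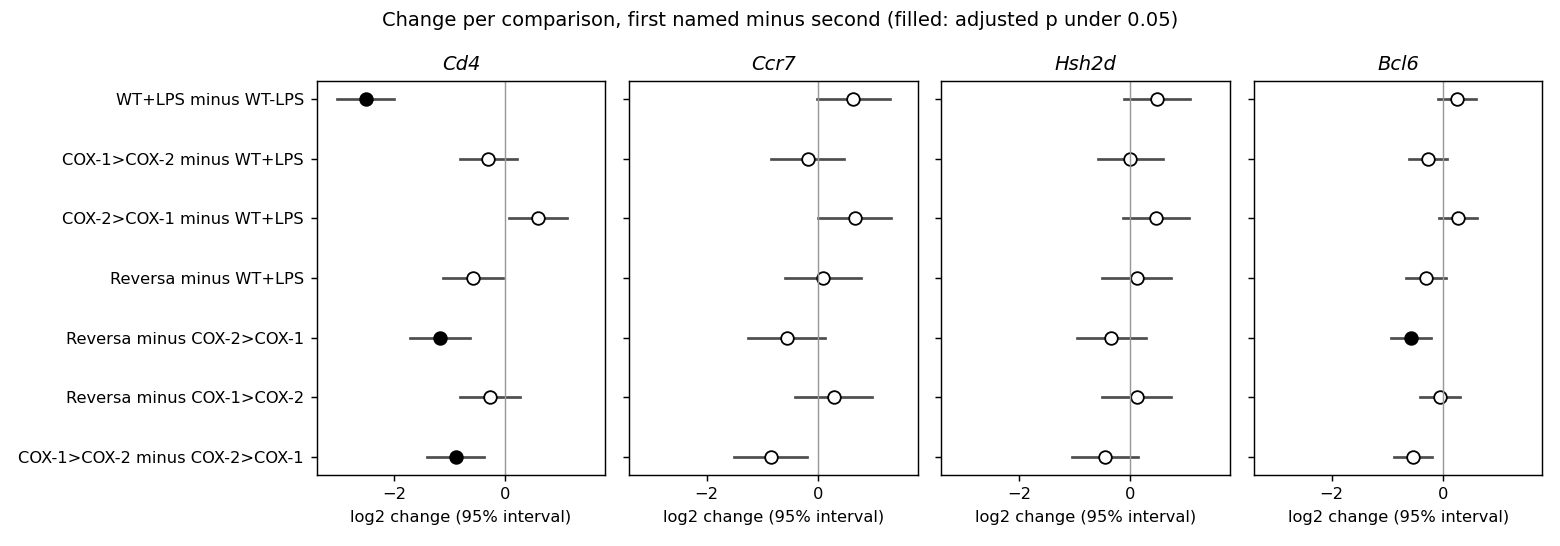
Log2 change with its 95% interval (horizontal) of each gene in 7 comparisons (vertical), the first named group minus the second, filled where the adjusted p was under 0.05. Filled points are Cd4 in WT+LPS against WT-LPS, Cd4 in Reversa and in COX-1>COX-2, each against COX-2>COX-1, and Bcl6 in Reversa against COX-2>COX-1.

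The genes listed around Ccr7 were its ligands Ccl19 and Ccl21a, which did not pass the filter on low values, and genes of antigen-presenting cells. Of 7 measured besides Ccr7, 5 passed the filter, and in WT+LPS against WT-LPS 4 rose and 1 fell, with a median log2 change of 1.92. Of all tested genes 83.7% passed there, and 49.5% rose. Ccl22, a chemokine of activated dendritic cells and macrophages, was 40.8-fold higher (adjusted p = 3.12e-14), and the related Ccl17 at least 5.29-fold higher (fitted adjusted p = 1.79e-08). The co-stimulatory ligand Cd86 was 3.60-fold higher at 3434 ± 970.5 in WT+LPS and 926 ± 102 in WT-LPS (adjusted p = 2.16e-08). H2-Eb1, a class II chain gene, was 2.14-fold lower at 10880 ± 2687 in WT+LPS and 22930 ± 4289 in WT-LPS (adjusted p = 0.000184, all limma). Between LPS groups none of the 5 passed. The 4 measured dendritic cell markers summed to 7942 to 25620 in Reversa, 16150 to 38970 in COX-2>COX-1, 12620 to 19680 in COX-1>COX-2, 10260 to 20420 in WT+LPS and 18790 to 30310 in WT-LPS, and their part in the Ccr7 levels was not tested. Most of this sum is H2-Eb1, which fell, while Cd86, Ccl22 and Ccl17 rose. The sum therefore does not gauge cell numbers.

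Hsh2d showed a pattern close to that of Ccr7 at a lower signal. It stood at 368, 510, 754 and 998 in Reversa samples 52, 54, 53 and 51 and at 182 in the averaged sample. Its lowest, median and highest values were 502, 581 and 982 in COX-2>COX-1, 321, 440 and 641 in COX-1>COX-2, 327, 420.5 and 663 in WT+LPS, and 233, 314 and 462 in WT-LPS. As for Ccr7, all COX-2>COX-1 samples exceeded all WT-LPS samples, as was so for 42.6% of all tested genes. Reversa held both the highest and the lowest Hsh2d value of the series.

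In COX-2>COX-1 Hsh2d was 1.93-fold higher, at 626 ± 179 there and 322 ± 79.2 in WT-LPS (SD, n = 6 each), with a log2 change of 0.95 ± 0.29 (SE) and an adjusted p of 0.0039 in limma. In this comparison 85.1% of all tested genes passed. The Hsh2d change was 1.44, 0.62 and 0.79 within the runs. It missed the threshold with equal total signal (0.49, adjusted p = 0.17) and turned to -0.21 with equal medians of all genes. In WT+LPS the mean was 458 ± 136, a change of 0.49 from WT-LPS (95% interval -0.11 to 1.08, adjusted p = 0.117). In COX-1>COX-2 it was 457 ± 123 (0.50, -0.10 to 1.09, adjusted p = 0.117), and in Reversa 562 ± 321 (0.61, -0.01 to 1.23, adjusted p = 0.0653, all limma). Under equal medians these were -0.65, -0.57 and -0.41, the values of WT+LPS and COX-1>COX-2 then being called lower (adjusted p = 0.0179 and 0.0353, limma).

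Between LPS groups Hsh2d did not pass in any of 6 comparisons. Set against WT+LPS, the change was 0.12 (95% interval -0.50 to 0.75) in Reversa, 0.46 (-0.13 to 1.05) in COX-2>COX-1 and 0.01 (-0.59 to 0.60) in COX-1>COX-2, with adjusted p of 0.878, 0.573 and 0.983 in limma. The order by geometric mean was COX-2>COX-1, Reversa, COX-1>COX-2, WT+LPS and WT-LPS, and no neighbours differed by the test. None of the 4 genes passed between Reversa and COX-1>COX-2 either, where 1.49% of all genes did, and none of the 4 was among the 30 genes (14.9%) with an unadjusted p under 0.05.

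Most of the interferon-stimulated genes, among which Hsh2d had been listed, rose. Of 18 measured besides Hsh2d, 15 rose, 2 fell and 1 did not pass in WT+LPS against WT-LPS, where 83.7% of all genes passed and 49.5% rose. Their median log2 change was 3.78, beside 0.47 for all genes. Irf7, a regulator of interferon genes, averaged 7600 in WT+LPS and was 18.7-fold higher (adjusted p = 1.55e-17), and Ifit1, which binds viral RNA, was 79.6-fold higher (adjusted p = 1.57e-18, both limma). Hsh2d, with a log2 change of 0.49 that did not pass, lay under the list median. Between LPS groups Cxcl9, an interferon-gamma-induced T cell chemokine, was lower in Reversa (770 ± 598, n = 5) than in WT+LPS (2808 ± 832, n = 6; 4.36-fold, adjusted p = 0.00911) and than in COX-2>COX-1 (3.52-fold, adjusted p = 0.0287). Mx2 was 1.66-fold lower in COX-1>COX-2 than in COX-2>COX-1 (adjusted p = 0.0407, all limma), while Hsh2d there changed by -0.45 (adjusted p = 0.337).

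Ccr7 and Hsh2d were among each other's closest genes. Over the 23 LPS samples their Pearson r was 0.87 and Spearman's rho 0.78, and r was 0.87 after the group means were removed. It was 0.79 without the 2 samples farthest from the median and 0.83, 0.96 and 0.85 within runs 1, 2 and 3. With the group means removed, Hsh2d ranked 3rd for Ccr7, and Ccr7 ranked 7th for Hsh2d. Without that step each ranked 2nd of 201 genes for the other. For Ccr7 the closest were Grb2, an adaptor of receptor signalling (0.88), Hsh2d and the growth regulator Myc (0.87). For Hsh2d they were Tlr9, a sensor of unmethylated DNA abundant in B cells and plasmacytoid dendritic cells (0.89), Ccr7 and H2-Eb1 (0.87). The correlation of Ccr7 and of Hsh2d with the log2 recovered counts of the lanes was -0.13 and -0.25, and all these values are descriptions.

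**Figure D4:**
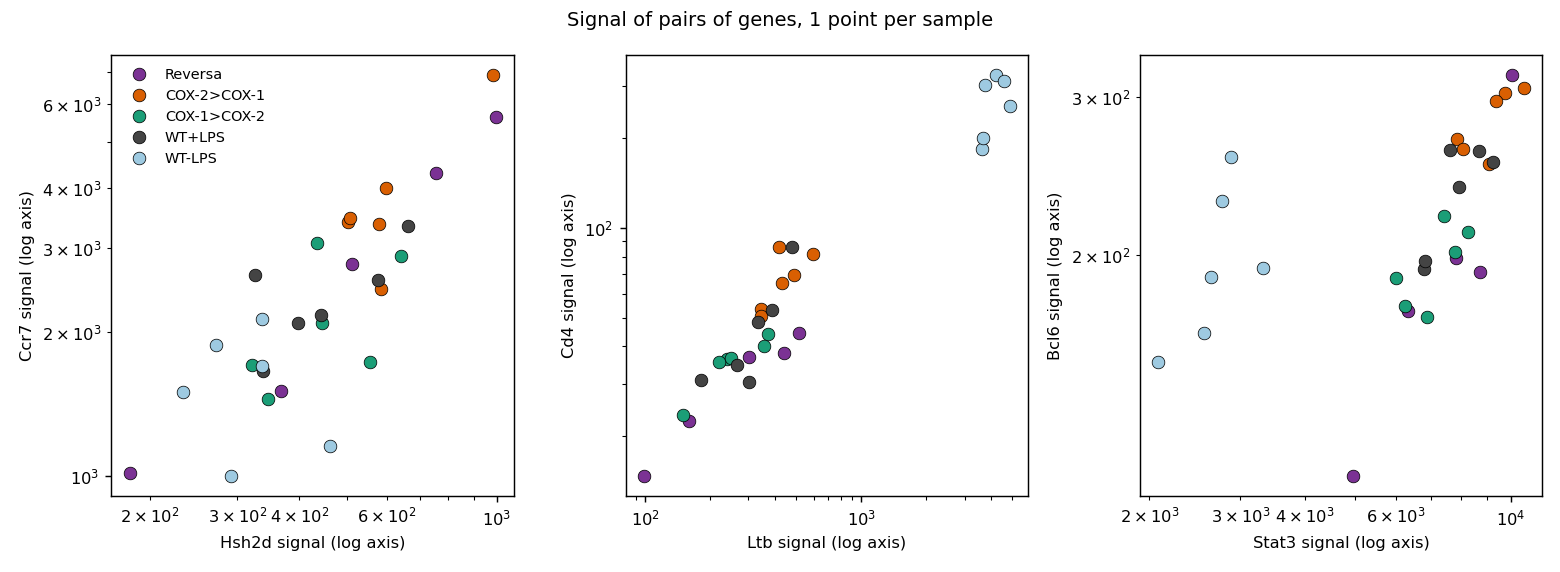
Signal of pairs of genes, 1 point per sample with both axes logarithmic, for Ccr7 against Hsh2d, Cd4 against Ltb and Bcl6 against Stat3. In the LPS samples r is 0.87, 0.88 and 0.88; WT-LPS samples stand apart in the Cd4 and Ltb panel and at low Stat3.

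Bcl6 had the smallest coefficient of variation of the 4 genes in every group, 37.3% in Reversa, 8.2% in COX-2>COX-1, 10.3% in COX-1>COX-2, 13.4% in WT+LPS and 20.1% in WT-LPS. Its signal was 114, 192, 199 and 317 in Reversa samples 52, 53, 54 and 51 and 173 in the averaged sample. The lowest, median and highest were 253, 283 and 307 in COX-2>COX-1, 171, 195 and 221 in COX-1>COX-2, 193, 246 and 261.5 in WT+LPS, and 152, 191.5 and 257 in WT-LPS. COX-2>COX-1 and COX-1>COX-2 did not overlap, while Reversa overlapped every group.

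Bcl6 was lower in Reversa than in COX-2>COX-1, at 199 ± 74.2 in Reversa (n = 5) and 282 ± 23.1 in COX-2>COX-1 (SD, n = 6), by 0.57 ± 0.18 on the log2 scale (SE), 1.49-fold, with an adjusted p of 0.0393 in limma. This call was fragile. It was lost without COX-2>COX-1 51, 52, 54 or 56 or without Reversa 52, 53, 54 or the averaged sample, at adjusted p between 0.0535 and 0.131 and changes between -0.59 and -0.39, the smallest change without Reversa 52. It was also lost under all 4 other scalings, at adjusted p of 0.237 with equal total signal, 0.102 with equal medians, 0.085 with all 6 reference genes and 0.0507 with 4 reference genes. It was lost as well with only those groups in the fit (0.213) and with no filter on low genes (0.0514). Its sign was the same in each run alone, at -0.68, -0.49 and -0.61, none past the threshold (adjusted p = 0.487, 0.290 and 0.181, limma).

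In COX-1>COX-2 against COX-2>COX-1, Bcl6 averaged 195 ± 20.1 and 282 ± 23.1 (SD, n = 6 each), a log2 change of -0.53 (95% interval -0.87 to -0.19), and missed the threshold with an adjusted p of 0.0569 in limma. It and Cd4 were the 2 of the 4 genes without overlap there, as were 4.95% of all genes. With only those 2 groups in the fit its adjusted p was 0.0108.

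Against the vehicle Bcl6 passed in COX-2>COX-1, where it was 1.44-fold higher at 282 ± 23.1, beside 198 ± 39.8 in WT-LPS (SD, n = 6 each; adjusted p = 0.00507, limma), but with equal medians of all genes it was called lower, at -0.63 (adjusted p = 0.000773). In that comparison 85.1% of all tested genes passed. The Bcl6 call was also lost with equal total signal (0.065, adjusted p = 0.718), with all 6 reference genes (0.34, adjusted p = 0.0601) and in each run alone (0.77, 0.55 and 0.27; adjusted p = 0.172, 0.0844 and 0.268, limma). In WT+LPS it averaged 234 ± 31.3, a change of 0.26 from WT-LPS (95% interval -0.09 to 0.60, adjusted p = 0.15), which was 0.76 (adjusted p = 7.81e-05) when scaled by 4 reference genes, -0.12 (adjusted p = 0.491) with equal total signal and -0.88 (adjusted p = 1.37e-05) with equal medians. In Reversa the change from WT-LPS was -0.04 (adjusted p = 0.836) and in COX-1>COX-2 -0.002 (adjusted p = 0.989, all limma). The direction of Bcl6 under LPS therefore depended on the scaling.

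Against WT+LPS the Bcl6 changes were -0.30 (95% interval -0.66 to 0.06) in Reversa, 0.27 (-0.07 to 0.62) in COX-2>COX-1 and -0.26 (-0.60 to 0.08) in COX-1>COX-2, with adjusted p of 0.319, 0.573 and 0.572 in limma. The order by geometric mean was COX-2>COX-1, WT+LPS, WT-LPS, COX-1>COX-2 and Reversa, with no neighbours past the test. All 4 genes thus had their highest LPS-group mean in COX-2>COX-1, though none of the 4 passed there against WT+LPS. The share of all tested genes with this pattern was not counted. The panel leaned the same way, since the median log2 change over all tested genes from COX-2>COX-1 was -0.14 for Reversa and -0.10 for COX-1>COX-2. From WT+LPS to COX-2>COX-1 this median was 0.02. The 4 genes also varied together over the LPS samples (Pearson r 0.45 to 0.87), so they are not independent. The lead of COX-2>COX-1 held in each run for Bcl6, but not for the others. In run 2 the log2 change from COX-2>COX-1 to Reversa was 0.011 for Ccr7 and 0.296 for Hsh2d. There COX-2>COX-1 differed from WT+LPS by 0.0 for Cd4 and -0.026 for Hsh2d. In run 3 Ccr7 was 0.046 higher in COX-1>COX-2 than in COX-2>COX-1.

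The genes listed around Bcl6 include Il6 and Stat3, which act upstream of it in T cells. Of 4 tested, Il6, Il10 and Stat3 rose and Il6ra, the Il6 receptor chain, fell in WT+LPS against WT-LPS, where 83.7% of all genes passed. Their median log2 change was 3.72, or 2.49 with 2 of them at their bounds. Stat3, the transcription factor downstream of Il6, averaged 7856 ± 986 in WT+LPS and 2705 ± 410 in WT-LPS, 2.91-fold higher (adjusted p = 1.43e-10). Il6 was at least 95.8-fold and Il10 at least 10.8-fold higher, and Il6ra was 3.46-fold lower (adjusted p = 4.36e-12). Between LPS groups Il6ra passed once, 1.59-fold higher in COX-1>COX-2 (685 ± 115) than in COX-2>COX-1 (427 ± 53.3, adjusted p = 0.00219, all limma).

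All 12 inflammatory genes listed as restrained by BCL6 in mouse macrophages rose in WT+LPS against WT-LPS, where 49.5% of all genes rose, with a median log2 change of 7.06 beside 0.47 for all genes. The monocyte chemokine Ccl2 was 87.8-fold higher (adjusted p = 6.58e-22, limma), and its relative Ccl7 at least 355-fold. Between LPS groups 1 of the 12 passed, in Reversa against WT+LPS and against COX-2>COX-1. Of all tested genes 8.42% and 10.9% passed in these comparisons. Ccl5, a chemokine for T cells and monocytes, was 2.31-fold lower in Reversa (18630 ± 4862, n = 5) than in WT+LPS (42110 ± 3926, n = 6; adjusted p = 0.000509) and 2.27-fold lower than in COX-2>COX-1 (adjusted p = 0.000287, both limma). The lower Bcl6 in Reversa than in COX-2>COX-1 was a fragile call, as given above. In Reversa against WT+LPS Bcl6 did not pass (adjusted p = 0.319, limma). A link between Bcl6 and these 12 genes was not tested.

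Across the 23 LPS samples Bcl6 varied most like Stat3 (r = 0.88, and 0.86 with group means removed). The Bcl6 windows were shown for that reason, so the TTCNNNGAA letters marked there are no separate evidence. A link between Stat3 and Bcl6 was not tested. Hif1a, a hypoxia-responsive transcription factor, and Tgfb3, a growth factor, followed (0.78 each). The correlation of Bcl6 with the log2 recovered counts was 0.11, and that of Cd4 -0.14.

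Reversa was the most variable of the 5 groups for Ccr7, Hsh2d and Bcl6. Sample 51 was the highest Reversa sample for all 4 genes, and sample 52 was the lowest for Cd4 and Bcl6. Samples 55 and 56, which were averaged, read 1035 and 996 for Ccr7, 176 and 188 for Hsh2d, 178 and 169 for Bcl6 and 24.3 and 20.7 for Cd4. The summed T and NK cell markers ranged from 859 to 8899 in Reversa, 769 to 1981 in COX-2>COX-1, 580 to 1659 in COX-1>COX-2, 845.5 to 1459 in WT+LPS and 56.6 to 129 in WT-LPS, and the 2 B cell markers from 2808 to 4707 in Reversa, 3143 to 5118 in COX-2>COX-1, 2524 to 4513 in COX-1>COX-2, 2976 to 4111 in WT+LPS and 4446 to 5754 in WT-LPS. Both sums join markers that moved in opposite directions. Il17a and Ifng averaged 414 and 704.5 in WT+LPS against 1.78 and 3.39 in WT-LPS, while Cd40lg averaged 18.2 against 66.4. Cd40 averaged 3390 in WT+LPS against 897 in WT-LPS, while Ltb averaged 324 against 4105. The sums therefore do not gauge cell numbers. The part of T, NK and B cells in the results for the 4 genes was not tested.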

How the data were processed

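RNA of peritoneal macrophages from 30 mice was profiled on an nCounter inflammation panel, from total RNA at 20 ng/µl with a RIN of 7.0 or more, per the labels' protocols. The signal per gene and sample was deposited by the authors. Its derivation from counts, not given in the sources used here, was read from the values: a lane background was subtracted (floor 1) and gene rows were scaled to an equal geometric mean of Cltc and Gapdh. A second deposited table held equal signal in all 266 shared rows.

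Counts per lane were recovered from the steps of low values (tolerance 0.1) and used only for depth and the comparison of sample pairs. Limma 3.58.1 (R 4.3.3) was fitted to log2(signal + 1) of 202 genes (6 or more samples above 20), over 29 samples (Reversa 55 and 56 averaged), with a mean per group, eBayes and Benjamini-Hochberg adjustment over all 202 genes at 0.05. Tests were two-sided. Folds are from log2(signal + 1), which understates changes of low genes. Where most samples of one group were at 20 or less, folds are bounds with those values raised to 20. The fit was tested on simulated data.

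The 4 genes and the lists around them were chosen with earlier results of these data known. Named genes were the 4 genes, up to 4 genes of smallest p per list and comparison, the 3 genes most correlated with each over LPS samples, and the markers. Tnfsf14 and the genes that passed between exchange lines were named after their values were seen. Runs and lanes were read from the column names, and replicate numbers from the titles. Alternatives were 4 other scalings, filters, a pseudocount of 10, a prior variance trend, only the groups compared, run as a block, each run alone, leaving out each sample, and a replicate block. Python 3.11.15, numpy 2.4.6, pandas 2.3.3, scipy 1.17.1 and matplotlib 3.10.9 were used. Promoter windows came from RefSeq (GRCm38.p6).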

Additional observations from a re-analysis of the deposited data

Results flagged for a closer look

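In COX-2>COX-1, sample 52 stood apart for both Ccr7 and Hsh2d. Its Ccr7 signal of 6907 was the highest of the group of 6, with a gap to the next sample that made up 0.654 of the group's range, above Dixon's 95% critical value. Its Hsh2d signal of 982.2 likewise had a gap of 0.796 of the range. The gaps were taken on the signal itself, which is more skewed than the log2 signal used in the fits. Such gaps arise by chance in about 1 of 20 groups, and 20 sets of a gene in a group were examined. Ccr7 and Hsh2d varied together (r = 0.87), so their gaps are not independent. Without sample 52 the group's calls against WT-LPS for Ccr7 and Hsh2d were kept.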

How the results depend on the processing

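Of 1026 values of the 4 genes under alternatives, 896 kept direction and side of the threshold, 51 lost and 23 gained a call with the direction kept, and 56 turned sign, some of them with a call in the new direction. The fall of Cd4 against WT-LPS kept its direction in every alternative that gave a value, and lost its call in 1 of them, for COX-2>COX-1 in run 1 alone (adjusted p = 0.0529). A filter of signal above 20 in all samples gave no value for Cd4. Low signal limits Cd4, and a lone Reversa sample in run 3, assumed to vary like the others, limits that run. Values are log2 changes, and where no value is named as its source the cause was not tested.

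With equal total signal a call was lost for Bcl6 (-0.30) in Reversa against COX-2>COX-1, Cd4 (-0.65) in COX-1>COX-2 against COX-2>COX-1, Bcl6 (0.065) and Hsh2d (0.48) in COX-2>COX-1 against WT-LPS, Ccr7 (0.55) in Reversa against WT-LPS. Bcl6 (-0.12) in WT+LPS against WT-LPS turned sign. With all 6 reference genes a call was lost for Bcl6 (-0.50) in Reversa against COX-2>COX-1, Cd4 (-0.78) in COX-1>COX-2 against COX-2>COX-1, Bcl6 (0.34) in COX-2>COX-1 against WT-LPS, Ccr7 (0.62) in Reversa against WT-LPS. Scaled by 4 reference genes without Gapdh and Pgk1 a call was lost for Bcl6 (-0.51) in Reversa against COX-2>COX-1. Bcl6 (0.76), Ccr7 (1.15) and Hsh2d (0.997) in WT+LPS against WT-LPS, Ccr7 (1.01) and Hsh2d (1.04) in COX-1>COX-2 against WT-LPS, Hsh2d (1.18) in Reversa against WT-LPS gained a call. Bcl6 (0.54) in COX-1>COX-2 against WT-LPS, Bcl6 (0.53) in Reversa against WT-LPS turned sign. With equal medians of all genes a call was lost for Bcl6 (-0.44) in Reversa against COX-2>COX-1, Ccr7 (0.15) in COX-2>COX-1 against WT-LPS. Bcl6 (-1.06) in COX-1>COX-2 against WT-LPS, Bcl6 (-1.06) in Reversa against WT-LPS gained a call. Bcl6 (-0.88), Ccr7 (-0.49) and Hsh2d (-0.65) in WT+LPS against WT-LPS, Ccr7 (-0.60) and Hsh2d (-0.57) in COX-1>COX-2 against WT-LPS, Bcl6 (-0.62) and Hsh2d (-0.21) in COX-2>COX-1 against WT-LPS, Ccr7 (-0.28) and Hsh2d (-0.41) in Reversa against WT-LPS turned sign. Without a filter a call was lost for Bcl6 (-0.57) in Reversa against COX-2>COX-1, Ccr7 (0.74) in Reversa against WT-LPS. With only the groups compared in the fit a call was lost for Bcl6 (-0.57) in Reversa against COX-2>COX-1, Ccr7 (0.74) in Reversa against WT-LPS. Ccr7 (0.64) and Hsh2d (0.49) in WT+LPS against WT-LPS, Bcl6 (-0.53) and Ccr7 (-0.85) in COX-1>COX-2 against COX-2>COX-1, Hsh2d (0.49) in COX-1>COX-2 against WT-LPS gained a call. With run as a block a call was lost for Ccr7 (0.74) in Reversa against WT-LPS. In run 1 alone a call was lost for Bcl6 (-0.68) and Cd4 (-1.67) in Reversa against COX-2>COX-1, Cd4 (-1.49) in COX-1>COX-2 against COX-2>COX-1, Bcl6 (0.77) and Cd4 (-1.35) in COX-2>COX-1 against WT-LPS, Ccr7 (1.09) in Reversa against WT-LPS. Bcl6 (0.081) in Reversa against COX-1>COX-2, Bcl6 (0.012) in COX-1>COX-2 against WT-LPS, Bcl6 (0.093) in Reversa against WT-LPS turned sign. In run 2 alone a call was lost for Bcl6 (-0.48) and Cd4 (-0.84) in Reversa against COX-2>COX-1, Cd4 (-0.76) in COX-1>COX-2 against COX-2>COX-1, Bcl6 (0.55) and Hsh2d (0.62) in COX-2>COX-1 against WT-LPS. Ccr7 (1.01) in WT+LPS against WT-LPS gained a call. Hsh2d (-0.62) in COX-1>COX-2 against WT+LPS, Hsh2d (-0.026) in COX-2>COX-1 against WT+LPS, Ccr7 (0.011) and Hsh2d (0.30) in Reversa against COX-2>COX-1, Bcl6 (0.17) in COX-1>COX-2 against WT-LPS, Bcl6 (0.062) in Reversa against WT-LPS turned sign. In run 3 alone a call was lost for Bcl6 (-0.61) and Cd4 (-1.18) in Reversa against COX-2>COX-1, Cd4 (-0.44) in COX-1>COX-2 against COX-2>COX-1, Bcl6 (0.27) in COX-2>COX-1 against WT-LPS. Ccr7 (-1.50) and Hsh2d (-1.67) in Reversa against COX-2>COX-1, Ccr7 (0.64) and Hsh2d (0.65) in COX-1>COX-2 against WT-LPS gained a call. Ccr7 (0.33) and Cd4 (0.22) in COX-1>COX-2 against WT+LPS, Ccr7 (-1.22) and Hsh2d (-1.47) in Reversa against WT+LPS, Ccr7 (-1.55) and Hsh2d (-1.53) in Reversa against COX-1>COX-2, Ccr7 (0.046) in COX-1>COX-2 against COX-2>COX-1, Ccr7 (-0.91) and Hsh2d (-0.88) in Reversa against WT-LPS turned sign. With Reversa 55 and 56 kept apart a call was lost for Ccr7 (0.52) in Reversa against WT-LPS. Ccr7 (-0.12) and Hsh2d (-0.11) in Reversa against WT+LPS, Hsh2d (-0.12) in Reversa against COX-1>COX-2 turned sign.

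For each result of which at least 1 omission of a sample altered the call or sign, the changes over all omissions, altered or not, ran from -0.073 to 0.078 for Bcl6 in COX-1>COX-2 against WT-LPS. They ran from -0.23 to 0.14 for Bcl6, -0.004 to 0.61 for Ccr7 and -0.15 to 0.47 for Hsh2d in Reversa against COX-1>COX-2. They ran from -0.76 to -0.39 for Bcl6 and -0.60 to 0.011 for Hsh2d in Reversa against COX-2>COX-1. They ran from -0.23 to 0.14 for Bcl6, 0.45 to 1.07 for Ccr7 and 0.35 to 0.96 for Hsh2d in Reversa against WT-LPS. They ran from -0.19 to 0.43 for Ccr7 and -0.14 to 0.47 for Hsh2d in Reversa against WT+LPS. They ran from 0.52 to 0.74 for Ccr7 in WT+LPS against WT-LPS. They ran from -0.97 to -0.78 for Cd4 in COX-1>COX-2 against COX-2>COX-1. They ran from -0.099 to 0.12 for Hsh2d in COX-1>COX-2 against WT+LPS.

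Replicate numbers did not pair the samples (correlations of deviations between -0.352 and 0.258). With the number as a replicate block, a call was lost for Bcl6 (-0.54) in Reversa against COX-2>COX-1. Under it the sign turned for Hsh2d (0.043) in Reversa against COX-2>COX-1, and 14 genes rather than 22 passed in Reversa against COX-2>COX-1. The number of all genes called across alternatives and omitted samples was 2 to 26 in COX-1>COX-2 against COX-2>COX-1 (12 as reported), 1 to 5 in COX-1>COX-2 against WT+LPS (2 as reported), 105 to 178 in COX-1>COX-2 against WT-LPS (162 as reported), 1 to 4 in COX-2>COX-1 against WT+LPS (2 as reported), 0 to 20 in Reversa against COX-1>COX-2 (3 as reported), 4 to 29 in Reversa against COX-2>COX-1 (22 as reported), 5 to 23 in Reversa against WT+LPS (17 as reported) and 111 to 177 in WT+LPS against WT-LPS (169 as reported).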
